A study of Mus musculus with 15 samples.

Results

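The copy number of 9 genes of growth factor signalling was examined in the liver tumours of mice whose hepatocytes can lose the spindle checkpoint gene Mad2l1. The set held the receptor gene Met, its ligand gene Hgf, and the receptor genes Egfr, Erbb2, Erbb3, Igf1r, Fgfr1, Fgfr4 and Pdgfra. A gene was included if the array carried a probe with its name, and all 9 did, out of 19973 autosomal gene names in all. The measurement was array comparative genomic hybridisation, in which sample and reference DNA are labelled with different dyes and compete for short probes on a slide. The value is the log2 ratio of tissue to reference, so that 0 is the middle of the autosomes of that tissue and a positive value is more DNA.

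From 3 mice, 5 hepatocellular carcinomas (HCC) and 3 unaffected livers were hybridised on 15 arrays. The tumours 3151LT1 and 3151LT2 and the 3151 liver came from a female aged 16.4 months with the genotype Mad2(f/f) p53(f/+). The tumour 3760LT2 and the 3760 liver came from a male aged 13.8 months, and the tumours 4033LT1 and 4033LT2 and the 4033 liver from a male aged 13.9 months, both Mad2(f/f) p53(f/f). Every tissue, unaffected livers included, therefore came from an animal of the strain C57BL/6.129-Mad2flox,p53flox,AlbuminCre, in which the albumin promoter drives Cre in hepatocytes and the other cells of the liver keep the floxed alleles. DNA from the normal liver of a C57BL/6.129 animal of the opposite sex served as reference. Only mouse 3151 was p53(f/+) and female, so genotype, sex and animal cannot be told apart. A piece of tissue holds many cells, and a change in few cells and a smaller change in all of them cannot be told apart.

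Receptor tyrosine kinases span the cell membrane and, on binding a ligand, pair up and phosphorylate each other and downstream proteins of the Ras and PI3 kinase pathways. MET binds hepatocyte growth factor, the product of Hgf, and drives hepatocyte growth in liver regeneration. EGFR, ERBB2 and ERBB3 belong to one family that forms mixed pairs. ERBB2 binds no known ligand and ERBB3 has little kinase activity of its own. IGF1R binds insulin-like growth factors, FGFR1 and FGFR4 bind fibroblast growth factors, with FGFR4 as the main hepatocyte form, and PDGFRA binds platelet-derived growth factor.

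The members had 21 probes, 2 for 6 genes and 3 for Met, Igf1r and Fgfr1. The probes were 45 to 60 bases long, and their median GC content of 36.7% equalled that of all autosomal probes. All 315 spots of these probes, over the 15 arrays, were well above background in both channels and none was saturated. The probes are shown for the 3 genes on which the closest readings below depend, because a gene level here is the mean of only these sequences. Capitals mark runs of at least 5 of the same base. Positions are those of the array files, which name no genome build, so exon or intron was not assigned. The Met probes lay on chromosome 6 at 17442331 to 17442390, 17476371 to 17476430 and 17523589 to 17523648:
Met, A_53_P148041: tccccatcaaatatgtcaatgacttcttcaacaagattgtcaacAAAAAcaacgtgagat
Met, A_53_P116890: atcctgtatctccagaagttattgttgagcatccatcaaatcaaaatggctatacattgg
Met, A_53_P137958: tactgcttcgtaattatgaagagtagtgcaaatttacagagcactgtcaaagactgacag

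The Hgf probes lay on chromosome 5 at 16070622 to 16070681 and 16113654 to 16113713, and are shown because they gave different readings in several tissues:
Hgf, A_53_P176662: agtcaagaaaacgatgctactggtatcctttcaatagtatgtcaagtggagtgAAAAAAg
Hgf, A_53_P152424: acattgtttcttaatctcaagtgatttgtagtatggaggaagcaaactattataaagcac

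The Fgfr1 probes lay on chromosome 8 at 26639593 to 26639652, 26653472 to 26653531 and 26686046 to 26686103, and are shown because Fgfr1 was the member whose groups did not overlap by one of the measures:
Fgfr1, A_53_P103165: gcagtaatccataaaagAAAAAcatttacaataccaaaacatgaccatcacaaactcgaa
Fgfr1, A_53_P155286: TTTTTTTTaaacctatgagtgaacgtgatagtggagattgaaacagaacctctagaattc
Fgfr1, A_53_P142976: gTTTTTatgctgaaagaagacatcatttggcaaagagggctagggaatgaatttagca

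The labels were checked against chromosome X and the engineered genes. The mean of 1569 X probes was 0.88 in the 3151 liver and -0.87 and -0.92 in the 3760 and 4033 livers, with the signs that an opposite-sex reference gives. Mad2l1 and Trp53 had 1 probe each, and whether either lies in the floxed part was not established. Mad2l1 ranged from -1.22 to 0.59 in HCC and was below the liver of the same mouse in 5 of 5. Trp53 was below the own liver in 4 of 5 HCC, and in 3760LT2 it was -0.19 against -0.88 in the 3760 liver, the opposite direction. Every result of 3760LT2 also rests on 1 array in 1 dye orientation. In the 3151 liver the forward and dye-swap arrays did not correlate across autosomal probes (r = -0.073), against 0.24 and 0.28 in the other livers.

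HGF and MET are considered first, as ligand and receptor. The Hgf level was 0.08 in 3151LT2, -0.05 in 3151LT1, 0.23 in 3760LT2, 0.23 in 4033LT2 and 0.69 in 4033LT1. In the unaffected livers it was -0.04 for mouse 3151, 0.04 for 3760 and 0.27 for 4033. The highest tumour and the highest liver thus came from the same mouse, and the groups overlapped. The HCC mean was 0.24 ± 0.28 (SD, n = 5) and the liver mean 0.09 ± 0.16 (SD, n = 3), and the difference of 0.15 was not called by limma (SE 0.16, adjusted p = 0.801). It was 0.033 without 4033LT1, 0.082 without the 3151 liver and 0.24 without the 4033 liver.

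The Met level was 0.24 in 3151LT2, 0.31 in 3151LT1, -0.11 in 3760LT2, 0.47 in 4033LT2 and -0.09 in 4033LT1. It was -0.09 in the 3151 liver, 0.09 in the 3760 liver and 0.05 in the 4033 liver. Of the tumours, 3 lay above every liver and 2 below every liver. The HCC mean of 0.17 ± 0.26 (SD, n = 5) exceeded the liver mean of 0.02 ± 0.09 (SD, n = 3) by 0.15, less than the spread between tumours (limma, SE 0.15, adjusted p = 0.789). It was 0.073 without 4033LT2 and 0.097 without the 3151 liver. The difference was -0.17 among tissues scanned on day 1 and 0.43 among those of day 2, where day 1 held the tissues of mouse 3760, 4033LT1 and the 4033 liver, and day 2 those of mouse 3151 and 4033LT2. The forward and dye-swap arrays both placed Met above 0 in 3151LT2, at 0.14 and 0.35, in 3151LT1, at 0.25 and 0.37, and in 4033LT2, at 0.52 and 0.42. They disagreed in the 3151 liver, at 0.09 and -0.26.

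Genes of the ERBB family stood below 0 in several tumours. Egfr was at -0.37 in 3151LT2, -0.15 in 3151LT1, -0.05 in 3760LT2, -0.37 in 4033LT2 and 0.17 in 4033LT1, against 0.14, -0.05 and 0.02 in the 3151, 3760 and 4033 livers. Erbb2, on the same chromosome 11, was at -0.47 in 3151LT2, -0.45 in 3151LT1, 0.12 in 3760LT2, -0.20 in 4033LT2 and -0.0035 in 4033LT1. Its livers were at 0.02, -0.12 and -0.08. The tumours of mouse 3151 were thus the lowest for Erbb2, and 3151LT2 and 4033LT2 for Egfr. Erbb3, on chromosome 10, was at 0.10 in 3151LT2, -0.23 in 3151LT1, 0.06 in 3760LT2, 0.03 in 4033LT2 and -0.60 in 4033LT1, against 0.13, 0.01 and 0.004 in the livers. One tumour, 4033LT1, held the low end of Erbb3 by a wide margin. HCC minus unaffected liver was -0.19 for Egfr, -0.14 for Erbb2 and -0.17 for Erbb3, and none was called (limma adjusted p of 0.733, 0.798 and 0.774). The difference of Erbb3 was -0.056 without 4033LT1. That of Erbb2 was -0.074 without 3151LT2, -0.079 without 3151LT1 and -0.22 without 3760LT2.

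Of the remaining receptors, Fgfr1 was at 0.28 in 3151LT2, -0.02 in 3151LT1, -0.05 in 3760LT2, 0.29 in 4033LT2 and 0.45 in 4033LT1, and at -0.14, -0.0037 and 0.0033 in the livers of mice 3151, 3760 and 4033. Fgfr4 was at -0.09, 0.13, -0.19, 0.13 and -0.62 in the same order of tumours, and at 0.02, -0.14 and -0.05 in the livers. The tumour 4033LT1 was the highest of all tissues for Fgfr1 and the lowest for Fgfr4. Igf1r ranged from -0.32 to 0.0096 in HCC and from -0.10 to 0.0035 in the livers. Pdgfra ranged from -0.27 in 3151LT1 to 0.38 in 4033LT1, and from -0.11 to 0.0024 in the livers. Each of these 4 genes overlapped between groups, with HCC minus liver of 0.24 for Fgfr1, -0.07 for Fgfr4, -0.13 for Igf1r and 0.19 for Pdgfra. The difference of Pdgfra was 0.30 without 3151LT1, where the groups no longer overlapped (exact permutation p = 0.0286, the smallest for 4 against 3). The share of all genes without overlap was not computed for that set. By limma, 2809 of 19973 genes had an unadjusted p under 0.05 there, against 1622 with all tissues. The difference of Fgfr4 was 0.053 without 4033LT1, -0.030 without the 3151 liver, -0.11 without the 3760 liver, -0.13 without 4033LT2 and -0.14 without 3151LT1.

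**Figure D1:**
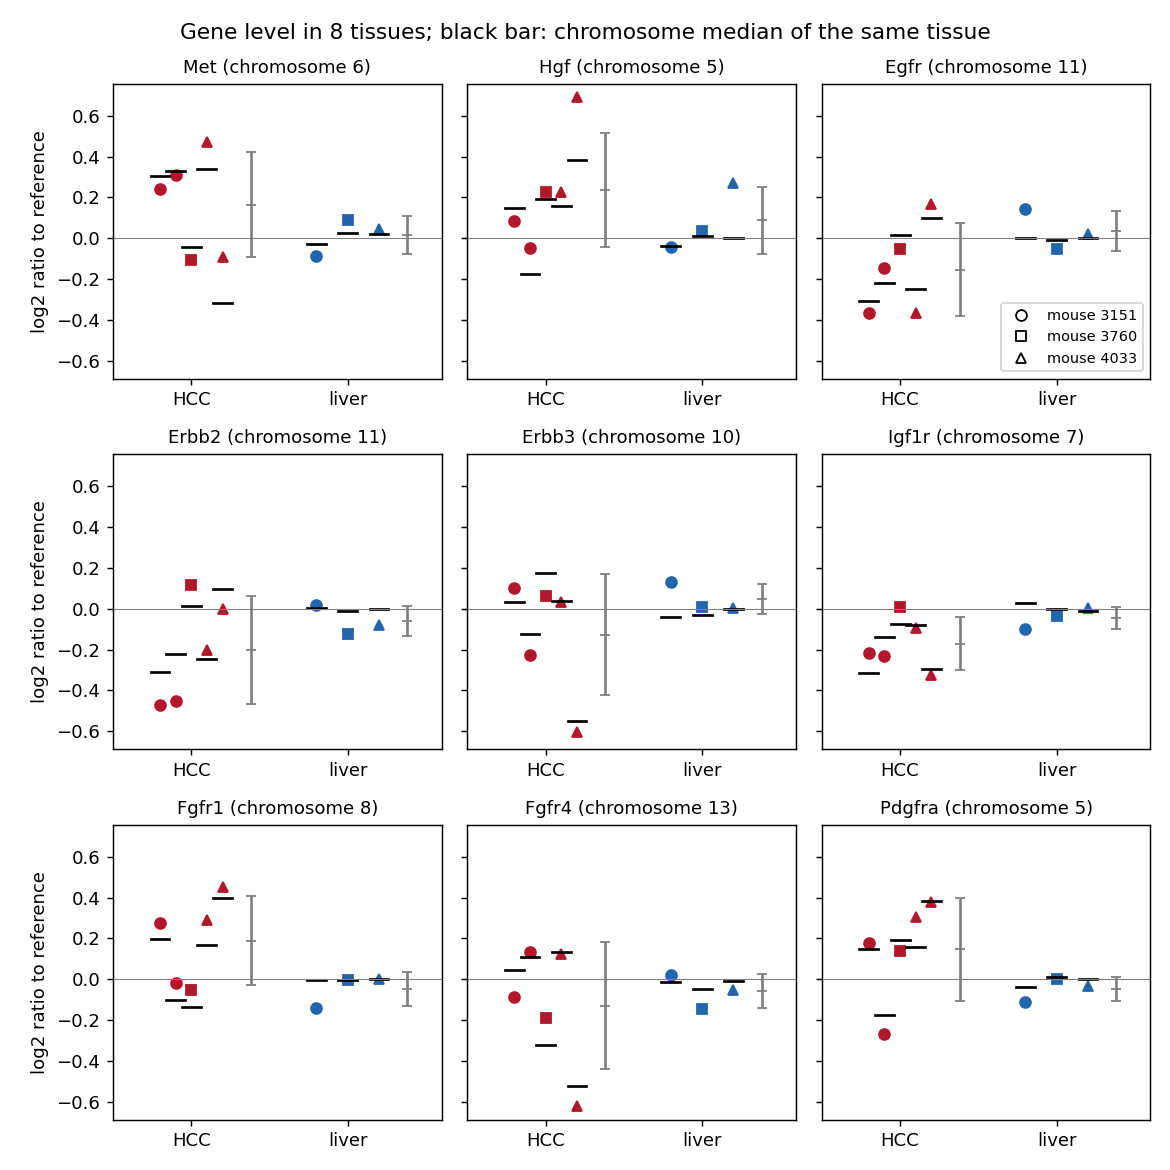
Each panel plots the log2 ratio of 1 gene in 5 HCC (red) and 3 unaffected livers (blue), with a symbol per mouse and a black bar at the median of the gene's chromosome in the same tissue; grey bars are the mean and SD. HCC are drawn in the order 3151LT2, 3151LT1, 3760LT2, 4033LT2 and 4033LT1. The symbols stay near their bars, and the HCC spread more widely than the livers.

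By limma over all autosomal genes, 0 of 9 members were called, where 0% of 19973 genes were called, and the adjusted p of the members ran from 0.696 to 0.896. At an unadjusted p under 0.05 the fit counted 1622 genes of the array and 0 members. Exact permutation of the tissue labels gave members a two-sided p of 0.125 to 0.804, where 56 splits allow no p below 0.0179. Groups that did not overlap were found in 0 of 9 members and in 9.77% of all genes. Within scan day 1 and day 2 the level difference was 0.31 and 0.13 for Hgf, -0.28 and -0.16 for Erbb3, -0.14 and -0.08 for Igf1r, 0.20 and 0.32 for Fgfr1, and 0.27 and 0.18 for Pdgfra. It had opposite signs for Egfr (0.08 and -0.44), Erbb2 (0.16 and -0.40) and Fgfr4 (-0.31 and 0.03), as it had for Met. The median difference of the members was -0.07 and that of all genes -0.0079. Tissues of one mouse are not independent animals, so these p-values measure the spread between tissues of 3 animals.

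Single tumours were then compared with the unaffected liver of the same mouse, with a gain at a difference of at least 0.3 and a loss at -0.3 or below, where 1 extra copy in every cell of a diploid tissue would give 0.58. In 3151LT2, 2 members were gained, Met by 0.33 and Fgfr1 by 0.42, and 2 lost, Egfr at -0.51 and Erbb2 at -0.49. Of all genes 20.9% were gained and 20.9% lost in this tumour. In 3151LT1, Met was gained by 0.40, with 18% of all genes gained, and Erbb2 at -0.47 and Erbb3 at -0.36 were lost, with 11% of all genes lost. In both tumours of mouse 3151 Met was thus gained and Erbb2 lost. The 3151 liver, subtracted from both, read 0.09 forward and -0.26 in the dye swap for Met. These gains of Met therefore depend on a liver reading that differed between orientations.

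In 3760LT2 no member passed either limit, where 13% of all genes were gained and 12.6% lost. In 4033LT2, Met was gained by 0.42 and Pdgfra by 0.34, and Egfr was lost at -0.39. The share of all genes was 15.8% for gain and 18.6% for loss. In 4033LT1, Hgf (0.42), Fgfr1 (0.45) and Pdgfra (0.41) were gained, where 24.7% of all genes were, and Erbb3 (-0.61), Igf1r (-0.33) and Fgfr4 (-0.57) were lost, where 27.1% were. Over all tumours, 8 of 45 member-tumour pairs (17.8%) were gained and 8 lost, against 18.49% gained and 18.05% lost of all gene-tumour pairs. The count of gains depends on where 0 is set. Each array was also centred on the mode of its autosomal probes. This moved tumour minus own liver by -0.26 in 4033LT1 and by -0.10 to 0.09 in the other tumours. By that centring 3 pairs were gained and 8 lost, and the shares of all genes were not computed. The lost pairs were not the same. Met in 4033LT1 moved from -0.14 to -0.40 and joined them, and Erbb3 in 3151LT1 left them at -0.26. Met in 3151LT2 then stood at 0.23, below the limit, while 3151LT1 and 4033LT2 kept it at 0.49 and 0.36.

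Tumours of one liver had different levels of these genes. In mouse 4033, 4033LT1 was below 4033LT2 by 0.75 for Fgfr4, 0.63 for Erbb3 and 0.56 for Met, and above it by 0.54 for Egfr and 0.46 for Hgf. In mouse 3151 the largest such difference was in Pdgfra, with 3151LT1 below 3151LT2 by 0.45. With chromosome medians subtracted, the differences between the tumours of mouse 4033 came to -0.09 for Fgfr4, -0.05 for Erbb3, 0.09 for Met, 0.19 for Egfr and 0.24 for Hgf. The single tumours have no replicate beyond dye orientations.

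To separate a change at a gene from a change of its chromosome, the median of all probes of the chromosome in the same tissue was subtracted. Relative to the chromosome, 0 of 45 member-tumour pairs were at least 0.3 above the own liver and 0 at least 0.3 below it. Among all gene-tumour pairs 5.7% were that much higher and 5.84% that much lower, a share that includes genes with 1 probe. Among genes with 2 or 3 probes, as the members have, 7.81% of pairs passed in either direction. The pairs of the members lay between -0.27, for Erbb3 in 3151LT1, and 0.23, for Igf1r in 3151LT2.

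The level of a member followed the level of its chromosome. Over the 45 pairs, gene and chromosome median, both as tumour minus own liver, correlated with a Pearson r of 0.89 and a Spearman rho of 0.89. These points share tumours, livers and chromosomes and are a description. Of all pairs of genes with 2 or 3 probes the r was 0.83. The SD of the members was 0.29 for the level and 0.13 relative to the chromosome, against 0.30 and 0.17 for the genes with 2 or 3 probes. On 40 of 45 occasions gene and chromosome lay on the same side of 0.

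**Figure D2:**
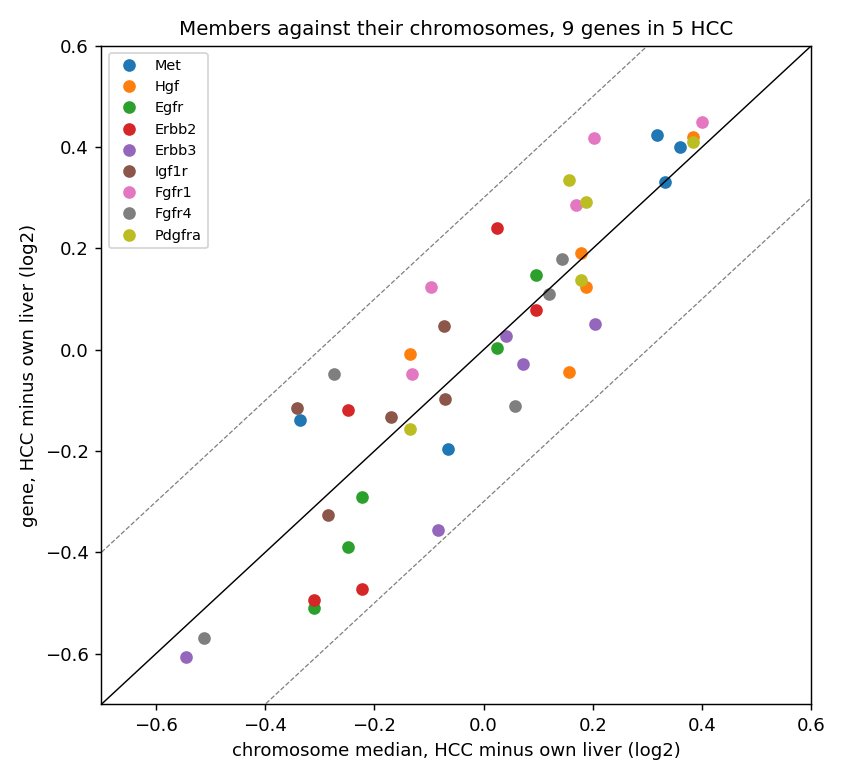
Each point is 1 gene in 1 HCC, with the median of its chromosome on the x axis and the gene on the y axis, both as log2 HCC minus the unaffected liver of the same mouse. The solid line marks equality and the dashed lines 0.3 above and below it; all 45 points lie between the dashed lines.

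Met followed chromosome 6 in this way. The chromosome 6 median stood at 0.30 in 3151LT2, 0.33 in 3151LT1, 0.34 in 4033LT2, -0.04 in 3760LT2 and -0.32 in 4033LT1, so that the tumours with Met gained also had a higher chromosome 6. Relative to chromosome 6, Met was at -0.06, -0.02, 0.13, -0.06 and 0.22 in the same order, and at -0.06, 0.07 and 0.03 in the livers of mice 3151, 3760 and 4033. The highest value was in 4033LT1, the tumour with the lowest chromosome 6. There the middle probe of Met read 0.49 above the chromosome median, and the outer ones 0.17 and 0.01. HCC minus liver was 0.03 by this measure (limma, SE 0.08, adjusted p = 0.999).

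Probes around Met were examined because a gained segment would lift them together. Within 1 Mb of its probes lay 31 further probes. The mean of the 34 probes, relative to chromosome 6 and to the own liver, lay between -0.09 and 0.05 in the 5 HCC. No Met pair therefore approached 0.3 over the neighbourhood. Over all members, 0 of 45 neighbourhoods passed 0.3 in either direction, against 0.749% of all gene-tumour pairs above and 0.0741% below. The most positive value was 0.16, for Erbb2 in 3760LT2, and the most negative -0.15, for Hgf in 3760LT2.

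**Figure D3:**
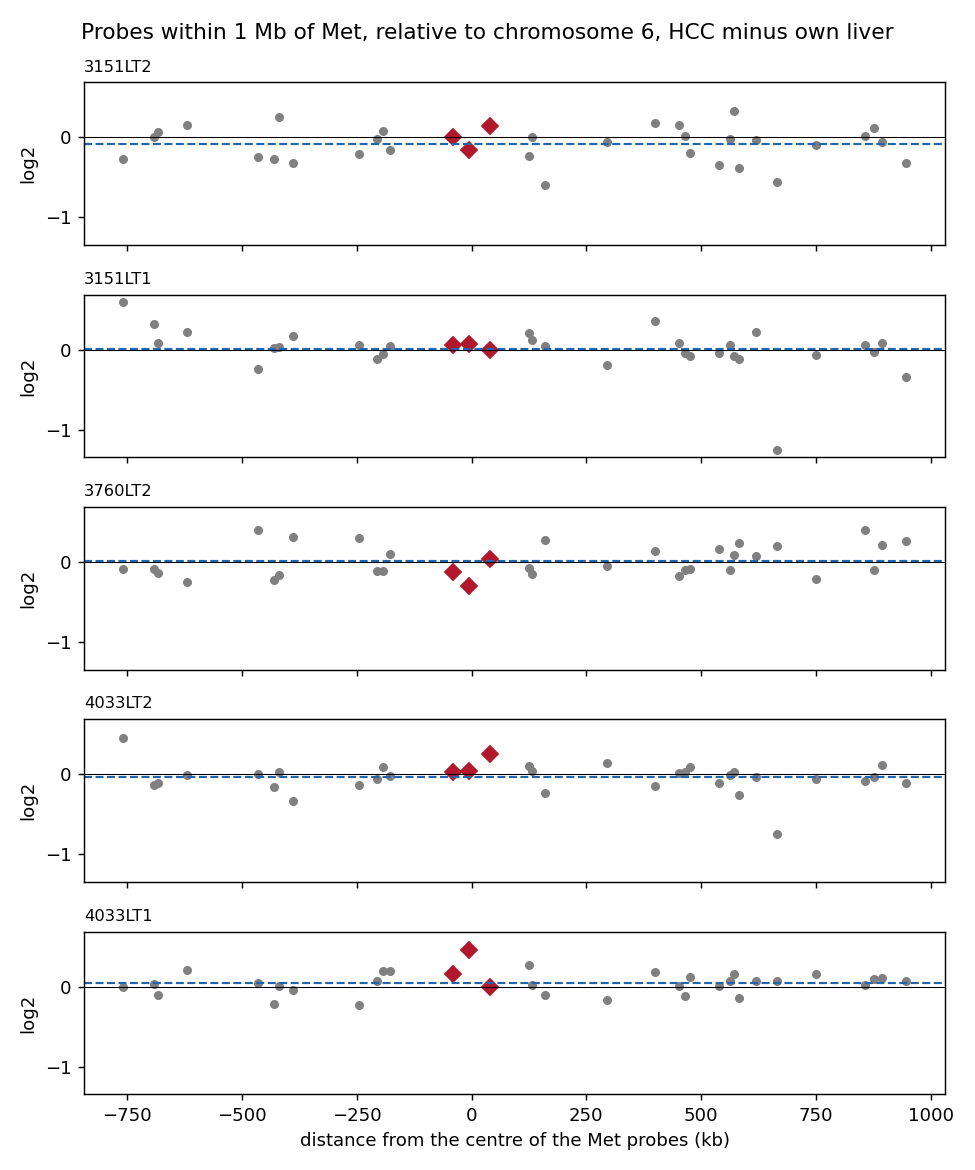
For each HCC, the probes within 1 Mb of Met are plotted by distance from the centre of the Met probes, in kb, against log2 HCC minus own liver relative to the chromosome 6 median. Red diamonds are the 3 Met probes, grey points the 31 others and the blue dashed line the mean of all 34, which stays between -0.09 and 0.05.

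Of the genes outside 1 Mb with at least 2 probes, those whose levels over the 8 tissues were most like Met were Gimap8 (r = 0.99), Clstn3 (r = 0.99) and Klf15 (r = 0.98). All of these lie on chromosome 6. Of the 100 genes most like Met, 97 were on chromosome 6, which held 5.57% of the 10919 genes compared. Met had the highest such count of the members. For the others it ran from 50 of 100 for Igf1r to 91 of 100 for Pdgfra. The likeness covers 8 tissues of 3 mice.

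The Hgf readings came apart by probe in all tissues of mouse 4033, in 3151LT1 and in 3760LT2. The probe at 16113654 read 0.59 in the 4033 liver, 0.92 in 4033LT1 and 0.37 in 4033LT2, and the probe at 16070622 read -0.04, 0.47 and 0.09. In the unaffected liver of this mouse, then, 1 of the probes was high and the other near 0. Both dye orientations gave the high value in that liver, 0.58 forward and 0.59 in the dye swap. Relative to chromosome 5, 0.317% of 40726 autosomal probes were as high or higher there. By that measure the probes at 16113654 and 16070622 read 0.33 and -0.081 in 3151LT1, 0.18 and -0.11 in 3760LT2, and 0.21 and -0.072 in 4033LT2. In 3151LT1 the orientations differed for the probe at 16113654, at -0.079 forward and 0.39 in the dye swap before the chromosome median was subtracted. The reading of 3760LT2 rests on 1 array. In the livers of the other mice the probes lay closer, at 0.044 and -0.052 for mouse 3151 and -0.024 and 0.072 for mouse 3760. In 3151LT2 they read -0.0066 and -0.13. The 15 neighbouring probes averaged -0.05 in the 4033 liver. Because the own liver carries the reading too, Hgf in 4033LT1 was 0.31 above chromosome 5 against the reference but 0.04 above it once the liver was subtracted.

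**Figure D4:**
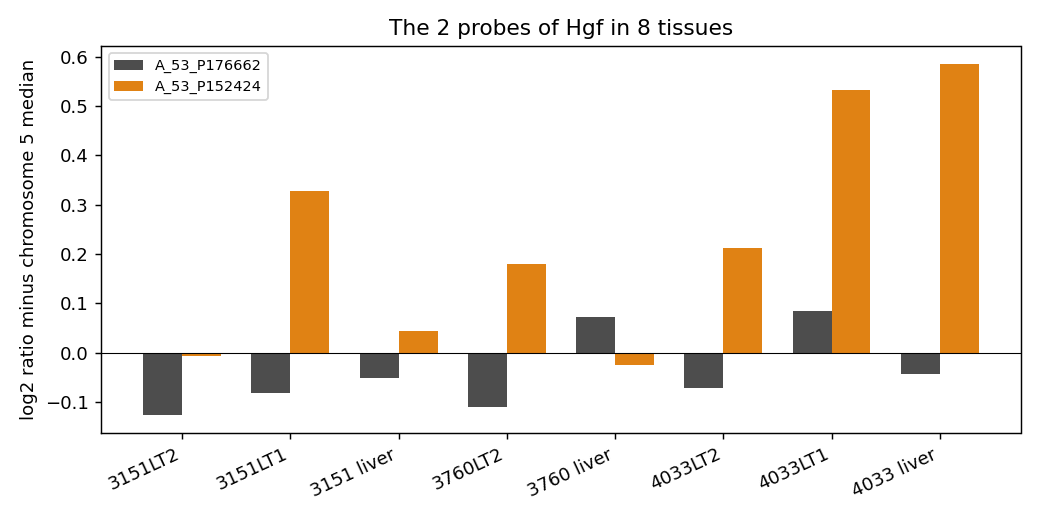
Bars give the log2 ratio of the 2 Hgf probes minus the chromosome 5 median in each tissue, from 0. The orange probe stands at 0.59 in the 4033 liver and 0.53 in 4033LT1, where the grey probe is at -0.04 and 0.08.

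Relative to the chromosome, limma called 0 of 9 members and 0% of all genes (309 genes and 0 members at an unadjusted p under 0.05). The differences ran from -0.11 for Erbb3 to 0.13 for Fgfr1. Erbb3 was below the own liver in 5 of 5 tumours, with 4 of 5 also below every liver, and its difference had an adjusted p of 0.999 by limma and an exact permutation p of 0.125. Without the 3151 liver that difference was -0.064. Without 3151LT2 it was -0.14, with groups that did not overlap (exact permutation p = 0.0571). The shares of all genes with such counts, or without overlap when 3151LT2 is left out, were not computed. For Met, Hgf, Egfr, Erbb2, Igf1r, Fgfr4 and Pdgfra the differences lay between -0.06 and 0.06.

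Fgfr1 was the member whose groups did not overlap relative to its chromosome. It was above chromosome 8 by 0.08 in 3151LT2, 0.08 in 3151LT1, 0.08 in 3760LT2, 0.12 in 4033LT2 and 0.05 in 4033LT1. The livers read -0.14 for mouse 3151, 0.001 for 3760 and 0.0037 for 4033. Every tumour was above every liver, by a small margin against the livers of mice 3760 and 4033. The difference was 0.13 (SE 0.06), with an exact permutation p of 0.0179, the smallest that 56 splits give, and a limma adjusted p of 0.999. Groups did not overlap in 2.01% of all genes, and every HCC was above every liver in 0.756%. The difference was 0.07 within scan day 1 and 0.23 within day 2, where the 3151 liver was the only liver. Without the 3151 liver the difference was 0.08. From forward arrays alone it was 0.09 with overlapping groups (exact permutation p = 0.304), and with normexp background correction 0.12, also overlapping (exact permutation p = 0.0893).

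The same gene against its 60 neighbouring probes within 1 Mb overlapped between groups (HCC minus liver 0.12, exact permutation p = 0.161). With normexp background correction the groups did not overlap against the neighbours (0.10, exact permutation p = 0.0179), nor without 3760LT2 (0.16, exact permutation p = 0.0286). The share of all genes without overlap against their own neighbours was not computed, so whether Fgfr1 is unusual there is not known. In 3760LT2 the neighbours of Fgfr1 averaged 0.03 where the chromosome median was -0.14, so that Fgfr1 lay 0.08 above the chromosome and 0.08 below its neighbours. The difference relative to the chromosome was 0.13, 0.09 and 0.17 for the 3 probes. The third reached 0.40 in 3151LT1 and -0.22 in the 3151 liver, so single probes spread more than the gene mean. With the main processing and all tissues, none of the 9 members passed an exact permutation p of 0.05 against its neighbours.

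**Figure D5:**
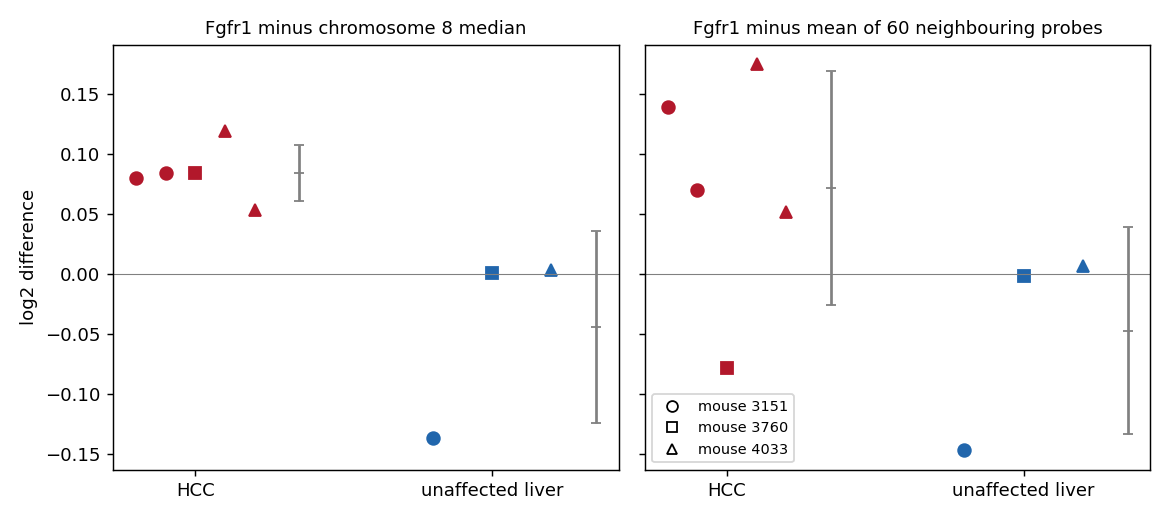
Points give Fgfr1 in 5 HCC (red) and 3 unaffected livers (blue), as the log2 difference from the chromosome 8 median on the left and from the mean of 60 neighbouring probes on the right; grey bars are the mean and SD. The groups separate on the left, from 0.05 to 0.12 against -0.14 to 0.0037, and overlap on the right.

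The 2 dye orientations of a tissue set the scale of error for a member. Over 63 pairs of a member and a tissue with both, forward and dye-swap levels differed by a median of 0.14 and at most by 0.57, in Erbb3 of 3151LT1 (0.06 forward and -0.51 in the dye swap). Relative to the chromosome, genes with 2 probes had an SD of 0.14 to 0.19 in the HCC and 0.11 to 0.16 in the livers.

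Other genes of growth factor signalling were described by lists of receptors, ligands, activators and inhibitors, and adaptors. Of 92 genes 86 had a probe, and limma called none in either fit, with 5 at an unadjusted p under 0.05 by level and 0 relative to the chromosome. By level, 40 were higher on average in HCC and 46 lower, with a median of -0.02, where all genes had -0.0079. The medians were 0.05 over 20 other receptors, -0.0058 over 22 ligands, -0.0023 over 21 activators and inhibitors and -0.04 over 23 adaptors. Of the 430 gene-tumour pairs 18.6% were gained and 16.5% lost, near the shares of all genes.

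The largest difference among these lists was in Pdgfb, a ligand of the platelet-derived family. The gene, on chromosome 15, was at 0.68 in 3151LT2, 0.15 in 3151LT1, 0.27 in 3760LT2, 0.89 in 4033LT2 and 0.58 in 4033LT1, and at -0.02, 0.04 and 0.0047 in the livers. Every HCC was above every liver, where groups did not overlap in 9.77% of all genes. The difference of 0.51 was not called (limma adjusted p = 0.321) and was 0.04 relative to chromosome 15. Pdgfa, a second ligand of the family on chromosome 5, differed by 0.32 and by 0.17 relative to its chromosome. Among receptors, Flt1 (a VEGF receptor) differed by 0.33 and Flt4 (also one) by -0.24. Among inhibitors and activators, Spry4 (an inhibitor of Ras signalling) differed by 0.28 and Hpn (a protease that activates pro-HGF) by -0.20. Among adaptors, Crkl differed by 0.24 and Gab2 by -0.23. For Flt1, Flt4, Spry4, Hpn, Crkl and Gab2 the values relative to the chromosome were 0.18, -0.11, 0.0031, -0.01, 0.03 and -0.04, and none of these genes had an adjusted p below 0.321 by limma. By level the groups also did not overlap in Pdgfa, Flt1, Spry4, Hpn and Crkl, and did in Flt4 and Gab2. All were picked as the largest differences of their lists.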

How the data were processed

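Two-colour arrays of tissue against opposite-sex normal liver DNA were analysed, 15 arrays of 8 tissues, with 1 orientation for 3760LT2. Per the file headers, the deposited intensity values were made with Agilent Feature Extraction 9.1.3.1, background-subtracted, detrended and dye-normalised. The authors also deposited log10 ratios, which matched those of the scanner files at every spot once dye swaps were turned. The genome build is not given in the sources used here.

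Log2 ratios were computed from the processed intensities with dye swaps turned. Control and outlier spots were left out (no member spot was marked), probes averaged, arrays centred on the autosomal median and orientations averaged. Gene levels are means of probes. A neighbourhood reached 1 Mb beyond a gene's probes and needed at least 3 probes. Limma 3.58.1 (R 4.3.3) was fitted over 19973 genes with Benjamini-Hochberg adjustment at 0.05. Exact permutation tests were two-sided. The limma fit by level was tested on simulated data with independent noise per gene and tissue. These lacked the shared shifts of chromosomes and the likeness between tissues of a mouse. There a shift of 1 in 200 of 19971 genes was recovered at 81% and a shift of 2 at 99.5%. Shifts as small as the limit of 0.3 or the 0.58 of 1 extra copy were not simulated. Scan day, slide and mouse were alternatives. Deviations from the group means correlated at 0.13 to 0.29 between a tumour and the liver of its mouse (5 pairs). Between a tumour and the liver of another mouse the range was -0.21 to 0.087 (10 pairs). Pairs of tumours of one liver were not among these.

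Members and lists were chosen with earlier results of these data known. All members were named, with Mad2l1, Trp53, the 3 genes most like Met, and the 2 largest differences per list among genes with at least 2 probes. The precision rests on the number of arrays, with a median signal over background of 3.72 to 7.95. Python 3.11.15, numpy 2.4.6, pandas 2.3.3 and matplotlib 3.10.9 were used.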

Additional observations from a re-analysis of the deposited data

How the results depend on the processing

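Under 20 alternatives, the exact permutation test among them, 0 genes were called by level and 0 relative to the chromosome. For the exact permutation test this was nearly fixed in advance, because its p cannot fall below 0.0179 and adjustment covered all autosomal genes. From 843 to 2809 genes by level and 115 to 797 relative to the chromosome had an unadjusted p under 0.05. The replicate block, with mouse as a fixed term, changed no call: it gave 1370 and 372 such genes and moved Erbb2 relative to the chromosome to 0.00023. In each measure 180 member values were compared, and those of the exact permutation test, which keeps the main difference, could not change direction. By level 179 kept their direction, and relative to the chromosome 164 did. The exceptions were small. By level, Fgfr4 (-0.07) ranged from -0.14 to 0.053 with single tissues left out, positive only without 4033LT1. Relative to the chromosome, Fgfr4 turned to -0.043 with normexp, Met to -0.069 and Pdgfra to -0.0071 from forward arrays alone, and Hgf to 0.034 with scan day as a block. With single tissues left out, Met ranged from -0.014 to 0.059, Hgf from -0.057 to 0.084, Erbb2 from -0.054 to 0.030 and Fgfr4 from -0.020 to 0.052, against 0.03, -0.0031, -0.01 and 0.02 with all tissues.

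Of 45 pairs, 8 were gained and 8 lost. Centring on the mode left 3 gained. A limit of 0.5 left 0 gained and 3 lost. Leaving out single tissues, which removes pairs, gave 3 to 8 gained and 4 to 8 lost. Relative to the chromosome, 0 pairs became 2 with normexp (Erbb2 in 3151LT2 and 3760LT2), 2 from forward arrays (Igf1r in 3151LT2 and Fgfr4 in 3151LT1), 9 at a limit of 0.2 and 1 with the own liver not subtracted (Hgf in 4033LT1). The cause was not tested. The shares of all gene-tumour pairs under these alternatives were not computed, so these counts cannot be read against the whole array. No neighbourhood passed under any alternative run, windows of 0.5 and 2 Mb included. Counted over the 27 member tests by exact permutation, an analysis chosen after seeing the data, 1 passed 0.05, with 0 from forward arrays, 1 with normexp (Fgfr1 against its neighbours, in place of Fgfr1 relative to the chromosome) and 1 to 2 with single tissues left out, where Pdgfra by level (0.30 without 3151LT1) or Fgfr1 against its neighbours (0.16 without 3760LT2) was added. Orientations differed by a median of 0.14, and genes with 2 or 3 probes had an SD of 0.17 relative to the chromosome and own liver. A focal shift under 0.3 at a single gene could therefore not be read, and one near 0.3 was not clear of this spread.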
